A study of Homo sapiens and Mus musculus with 28 samples.

Results

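The 59 nucleolar ribosome biogenesis factors are protein-coding genes whose products modify, cleave and fold ribosomal RNA in the nucleolus and assemble it into the precursors of both ribosomal subunits. They were taken by gene symbol from a list of names, and all 59 were found among the 35135 human gene IDs counted in 24 libraries of the SCC1 cell line. All 59 passed the filter on low counts, and the lowest count of any of them in any library was 106, for PWP2. Together they took between 0.707 and 1.397% of all counts in a library.

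The series looked at transcripts of head and neck squamous carcinoma (HNSCC) when REXO4, an RNA exonuclease, is lost. SCC1 is an established human cell line from such a tumor, and its polyadenylated RNA was sequenced from 8 groups of 3 libraries each, while 4 libraries from mouse tumors were not used here. The labels name no experiment or batch, so the split into 2 experiments used here was read from the titles. In the knockout experiment, KO_2 cells were given BX_795 or H151, the knockouts R4KO_2 and R4KO_1 were given vehicle, and control cells (Ctrl) were given vehicle. The KO_2 libraries held 21.36 to 27.94 M counts and those of the vehicle groups beside them 17.47 to 18.03 M, so they may differ in batch. In the iR4 experiment the groups were H151_iR4, iR4 and Vehicle, and iR4 is written as in the labels, which do not spell it out. H-151 inhibits STING, an adaptor that passes on the sensing of DNA in the cytosol, and BX-795 inhibits the kinase TBK1 and several other kinases. No group held Ctrl or Vehicle cells given an inhibitor alone. KO_2 was read, by its name, as the knockout that the vehicle group calls R4KO_2, but the levels of REXO4 and PXDN given with the inhibitor results differ between them, so whether both are 1 line is in doubt. The labels give no dose, time, culture or clone, so it is not known whether a knockout is 1 clone, and p-values may measure only technical spread between libraries.

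Ribosomal RNA is transcribed by RNA polymerase I as a long precursor, which small nucleolar RNPs (snoRNPs) guide through methylation and pseudouridylation. The precursor folds with a large processome that gives the small (40S) subunit, and with a chain of early particles that give the large (60S) subunit, while nucleases remove the spacers between the mature RNAs. Growing tumor cells make many ribosomes, and the genes for these factors are known targets of the growth regulator MYC.

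REXO4 was looked at first, since it is the targeted gene. On the scale of counts relative to the library total with TMM factors (CPM), it stood at 7.05, 7.11 and 5.03 in the R4KO_2 libraries and at 9.33, 9.99 and 9.43 in the R4KO_1 libraries, against 75.2, 77.9 and 71.9 in the Ctrl libraries. It stood at 61.8, 56.9 and 61.9 CPM in iR4, against 90.1, 96.4 and 95.5 CPM in Vehicle. Transcript thus remained in every group, and less of it was missing in iR4 than in the knockouts. The groups had total counts of 16.04 to 27.94 M per library, as a range over all 24. All 8 squamous epithelial markers had a mean above 1 CPM in every group, with a sum of 1936 to 4313 CPM per library, while the sum of 5 leukocyte markers stayed between 0.104 and 0.819 CPM. At least 1 of PTPRC, CD3E and LYZ was at 0 in all libraries of each group. Of 6 fibroblast and endothelial markers, only COL1A1 had a mean above 1 CPM in any group, and their sum was 20.8 to 48.9 CPM. The sums of these markers given below thus follow COL1A1, and the others, all with means below 1 CPM, can move another way. The R4KO_1 libraries 1 and 3 differed most among replicate pairs, with a mean chi-square per gene of 10.4 against 1.66 to 4.89 for the other pairs, and none agreed within sampling noise.

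**Figure D1:**
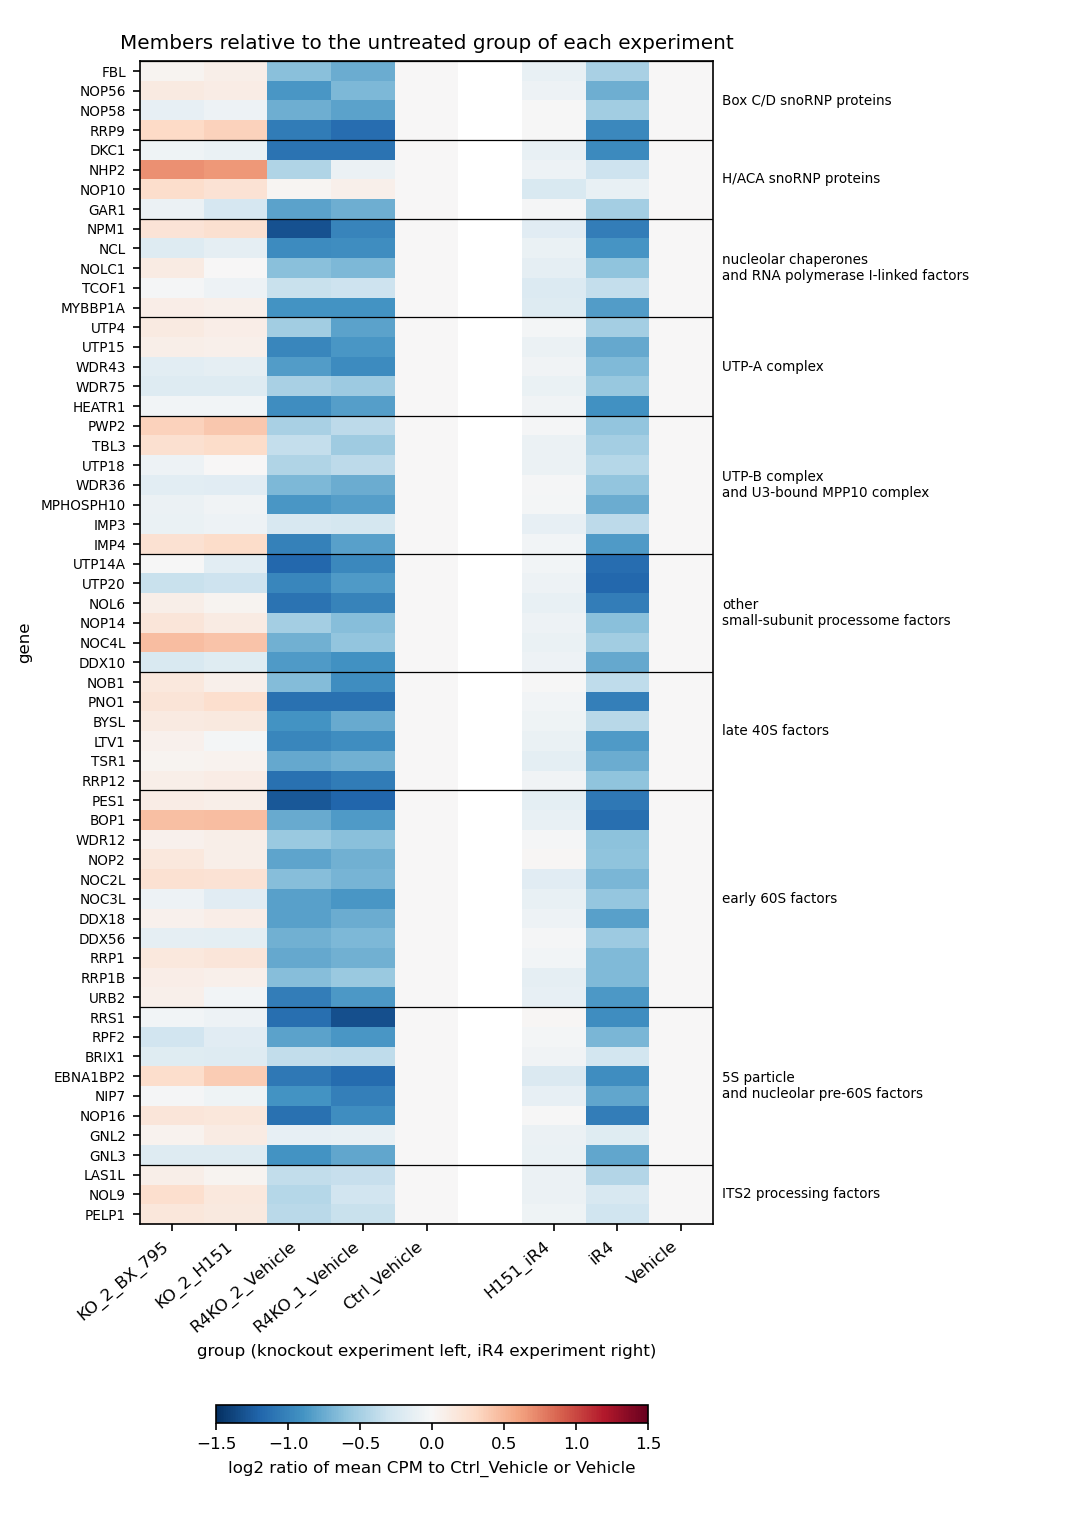
Mean level of each of the 59 genes in each group as a log2 ratio of CPM to Ctrl (5 groups of the knockout experiment, left) or Vehicle (3 groups of the iR4 experiment, right), with genes in rows ordered by role and 3 libraries per group. Blue cells are below and red cells above Ctrl or Vehicle, and the columns of R4KO_2, R4KO_1 and iR4 are blue for all genes but NOP10, NHP2 and GNL2, which are pale in at least 1 of them.

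The knockouts were compared with control cells to ask what changes without REXO4. Nearly all of the factors fell in both knockouts, from the snoRNP proteins to the factors of the late 40S and the 60S particles. In R4KO_2, 58 of 59 were lower than in Ctrl and none higher, at a median log2 fold change of -0.80. In R4KO_1, 57 were lower and none higher, with a median of -0.78. By edgeR's quasi-likelihood test with Benjamini-Hochberg adjustment over 14348 genes and a threshold of 0.05, 32.2% of all genes were lower in R4KO_2 and 31.4% in R4KO_1, and the median of all genes was 0.02 in both. A fall of 2-fold or more was called for 13 members in R4KO_2, where 3.15% of all genes had one, and for 9 in R4KO_1, where 2.55% had one. All 3 knockout libraries lay below all 3 Ctrl libraries for 58 members in R4KO_2, against 33.2% of all genes, and for 57 in R4KO_1, against 31.3%. The 2 comparisons share the Ctrl libraries, so their values are given side by side. In RNA from whole cultures, fewer cells of a kind and less RNA per cell cannot be told apart. The summed level of the 8 squamous markers was 3281 to 3369 CPM in R4KO_2 and 2835 to 3347 CPM in R4KO_1, against 3982 to 4313 CPM in Ctrl. Of the 8, 5 were lower and 2, CDH1 and SFN, higher in R4KO_2, and 6 were lower and the same 2 higher in R4KO_1. The sum of the fibroblast and endothelial markers was 29.9 to 33.5 CPM in R4KO_2 and 34.1 to 39.8 CPM in R4KO_1, against 22.3 to 23.3 CPM in Ctrl. The part of either set in the result was not tested.

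As a share of all counts, which needs no scaling factor, the 59 genes took 0.711 ± 0.0053% in R4KO_2 and 0.731 ± 0.0089% in R4KO_1, against 1.15 ± 0.0058% in Ctrl (SD, n = 3 each). NPM1 and NCL alone supplied 21.2% and 15.2% of these member counts in Ctrl. Without both genes, the shares were 0.498 ± 0.0059% in R4KO_2 and 0.495 ± 0.012% in R4KO_1, against 0.729 ± 0.0109% in Ctrl, so the lower share did not rest on the most abundant members.

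Promoters are shown for 4 members that fell together and were picked for holding the same motif, so that these 4 share it by choice. RefSeq windows from 250 bases before to 50 after the transcription start (GRCh38.p14) were used for 48 members, 53 windows in all. None was at hand for RRP1B, NOLC1, RRP12, URB2, RRS1, NOP58, BOP1, TCOF1, DDX18, RPF2 and MPHOSPH10. The 4 windows below belong to the 4 members of largest mean fall over R4KO_2, R4KO_1 and iR4 among those holding CACGTG, the E-box known to be bound by MYC with MAX and by related factors. The E-box is in capitals. PES1 is on the minus strand at chr22:30591861-30592160, UTP14A on the plus strand at chrX:129905914-129906213, PNO1 on the plus strand at chr2:68157638-68157937 and RRP9 on the minus strand at chr3:51941855-51942154.
PES1: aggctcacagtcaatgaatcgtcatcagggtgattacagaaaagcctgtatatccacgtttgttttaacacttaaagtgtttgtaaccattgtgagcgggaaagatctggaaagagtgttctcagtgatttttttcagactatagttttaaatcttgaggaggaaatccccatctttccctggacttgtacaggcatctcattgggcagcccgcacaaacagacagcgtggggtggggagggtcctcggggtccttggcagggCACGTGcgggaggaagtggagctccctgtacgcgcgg
UTP14A: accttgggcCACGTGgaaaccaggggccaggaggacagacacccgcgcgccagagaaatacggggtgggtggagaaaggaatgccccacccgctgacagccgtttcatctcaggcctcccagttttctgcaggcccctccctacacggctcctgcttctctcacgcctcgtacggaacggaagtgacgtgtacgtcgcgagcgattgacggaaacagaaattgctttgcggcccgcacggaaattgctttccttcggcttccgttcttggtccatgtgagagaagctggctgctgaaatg
PNO1: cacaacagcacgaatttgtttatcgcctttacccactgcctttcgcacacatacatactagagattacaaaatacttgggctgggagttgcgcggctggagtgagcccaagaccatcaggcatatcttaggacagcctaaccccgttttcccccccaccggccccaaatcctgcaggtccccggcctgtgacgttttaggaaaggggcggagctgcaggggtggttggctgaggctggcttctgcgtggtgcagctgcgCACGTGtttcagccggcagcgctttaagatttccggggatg
RRP9: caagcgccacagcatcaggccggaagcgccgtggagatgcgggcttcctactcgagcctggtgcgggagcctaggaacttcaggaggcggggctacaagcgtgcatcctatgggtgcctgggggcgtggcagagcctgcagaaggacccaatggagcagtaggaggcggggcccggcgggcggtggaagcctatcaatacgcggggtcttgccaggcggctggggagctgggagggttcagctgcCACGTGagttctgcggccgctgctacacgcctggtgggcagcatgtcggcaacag
The E-box begins 14 bases after the start in PES1 and 10 after it in PNO1, 5 before it in RRP9 and 241 before it in UTP14A.

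CACGTG, which reads the same on both strands, was present for 24 of the 48 members (50%), against 8.74% of the 27167 genes in the table and 10.9% of its 15724 protein-coding genes. CCGGAAG, the core of sites for ETS factors, was present on either strand for 19 members (39.6%), against 12.1% of all genes and 16.4% of protein-coding genes. GCGCATGC, which resembles sites of NRF1, was present for 6 members (12.5%), against 3.65% and 4.83%. Matches of different words can overlap by at most 1 base. The median GC content of member windows was 65.0%, against 62.3% for protein-coding windows. Among members, the mean log2 fold change over R4KO_2, R4KO_1 and iR4 had a median of -0.79 with an E-box and -0.67 without one. NPM1 and DKC1, which fell among the most, have no CACGTG in their windows. NOP10 and GNL2, which had the smallest mean changes, at -0.004 and -0.138, do hold it. A match is a run of letters, not a measured site.

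NPM1 (ENSG00000181163, chromosome 5 from 171387116 to 171411137, plus strand, GRCh38) encodes nucleophosmin, the chaperone of the outer nucleolus. It is the most abundant member per base of exon, at 2640 on the length-scaled TPM scale in Ctrl, where the members ranged from 5.40 TPM for PWP2 upward with a median of 104. NPM1 had 1041, 1031 and 1052 CPM in R4KO_2 and 1283, 1301 and 1288 CPM in R4KO_1, against 2609, 2476 and 2636 CPM in Ctrl. It was lowest in R4KO_2, and the 3 groups did not overlap. The log2 fold change was -1.31 (SE 0.029, edgeR adjusted p = 7.04e-19) in R4KO_2 and -0.996 (SE 0.029, edgeR adjusted p = 6.23e-17) in R4KO_1. The files do not say how reads shared with its 45 named pseudogenes were counted. NCL, which encodes the RNA-binding protein nucleolin, fell by 0.94 on the log2 scale in R4KO_2 and by 0.93 in R4KO_1. TCOF1, which encodes the polymerase I factor treacle, fell least of these chaperones and polymerase I-linked factors, by 0.34 and 0.31, and the median over the 5 of them was -0.89 in both knockouts.

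The box C/D snoRNP proteins, which carry the guide RNAs for ribose methylation, were lower in 4 of 4 cases in each knockout. RRP9, a protein of the U3 snoRNP, fell most among them, by 1.05 on the log2 scale in R4KO_2 and by 1.15 in R4KO_1. Its levels were 22.9, 20.2 and 23.2 CPM in R4KO_2 and 17.9, 18.4 and 25.9 CPM in R4KO_1, against 44.2, 51.1 and 42.1 CPM in Ctrl, with no overlap. FBL, the fibrillarin methyltransferase, fell by 0.63 in R4KO_2 and by 0.75 in R4KO_1.

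The 4 proteins of the H/ACA snoRNP, which guides pseudouridylation and also binds telomerase RNA, differed widely among themselves. DKC1, the pseudouridine synthase of the particle, had 139, 142 and 137 CPM in R4KO_2 and 135, 135 and 149 CPM in R4KO_1, against 303, 301 and 299 CPM in Ctrl. That is a log2 fold change of -1.11 (SE 0.038, edgeR adjusted p = 5.26e-16) and of -1.10 (SE 0.038, edgeR adjusted p = 9.54e-16). GAR1, its partner in the particle, fell by 0.80 in R4KO_2 and by 0.74 in R4KO_1. NHP2, another partner, had 79.1, 79.3 and 80.4 CPM in R4KO_2 and 103, 102 and 104 CPM in R4KO_1, against 106, 117 and 105 CPM in Ctrl. It fell by 0.46 in R4KO_2, while in R4KO_1 its difference of -0.08 did not pass the test (edgeR adjusted p = 0.0911). Exons of RMND5B on the other strand cover 27.4% of its exon bases. NOP10 (ENSG00000182117), the smallest protein of the particle, had 95.4, 95.5 and 104 CPM in R4KO_2 and 94.6, 101 and 112 CPM in R4KO_1, against 101, 96.2 and 93.4 CPM in Ctrl. The groups overlapped, with log2 differences of 0.02 (SE 0.054, edgeR adjusted p = 0.714) and 0.08 (SE 0.054, edgeR adjusted p = 0.19), and both became higher calls, of 0.19 and 0.23, when libraries were scaled by their totals alone. Per base of exon, NOP10 stood at 799 TPM beside 149 TPM for DKC1 in R4KO_2, and at 686 beside 281 TPM in Ctrl.

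**Figure D2:**
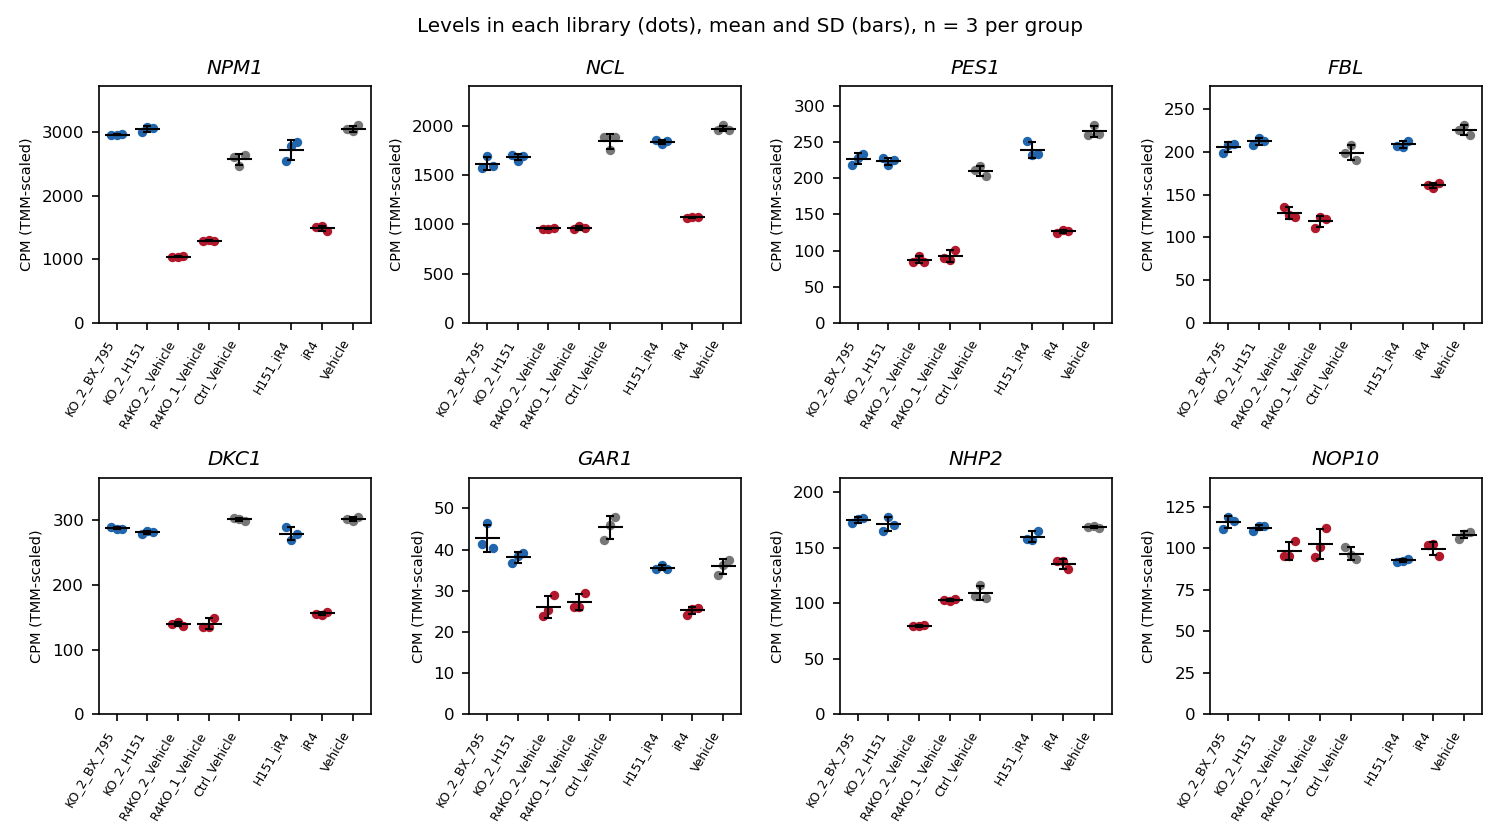
Level in CPM on a linear axis from 0 for 8 genes in each of the 24 libraries (dots), with the mean and SD of each group of 3 (bars) and the groups given an inhibitor in blue. NPM1, NCL, PES1, FBL, DKC1 and GAR1 are lower in R4KO_2, R4KO_1 and iR4 (red) than in Ctrl or Vehicle (grey), NHP2 is lowest in R4KO_2, and NOP10 lies between 91.9 and 119 CPM in all groups.

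Factors of the small-subunit processome fell in every complex. The UTP-A proteins, which bind the precursor as it is transcribed, were lower in 5 of 5 cases in each knockout, with a median of -0.84 in R4KO_2 and -0.83 in R4KO_1. The 7 proteins of the UTP-B and the U3-bound MPP10 complexes were all lower too, but by less, with medians of -0.49 and -0.53. IMP3 stood for the small end of this range. It had 29.6, 28.3 and 26.1 CPM in R4KO_2 and 27.3, 29 and 26.6 CPM in R4KO_1, against 33.8, 31.4 and 34.0 CPM in Ctrl. Its log2 fold change was -0.24 in R4KO_2 and -0.26 in R4KO_1, neither of which kept its call when libraries were scaled by their totals alone. Exons of other genes on the other strand cover 59.3% of its exon bases. MPHOSPH10, the scaffold that IMP3 binds, fell by 0.87 in R4KO_2 and by 0.82 in R4KO_1, and IMP4, the third protein of that complex, fell by 1.008 and 0.81. PWP2, a UTP-B protein, passed the test in R4KO_1 although its libraries overlapped those of Ctrl. Of the other 6 processome factors, UTP14A, known in yeast to switch on a helicase that frees the U3 RNA, fell by 1.17 in R4KO_2 and by 0.97 in R4KO_1. NOL6 fell by 1.10 and 1.0003, and NOP14 by 0.51 and 0.64.

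The late 40S factors, which finish the small subunit, were lower in 6 of 6 cases in each knockout, with medians of -0.94 and -0.93. PNO1, the partner of the nuclease NOB1, had 27.3, 30.5 and 26.9 CPM in R4KO_2 and 28.9, 28.3 and 28.01 CPM in R4KO_1, against 61.0, 61.2 and 62.3 CPM in Ctrl. It fell by 1.12 in R4KO_2 and by 1.11 in R4KO_1. NOB1, which makes the last cut at the 3′ end of 18S rRNA, fell by 0.65 in R4KO_2 and by 0.93 in R4KO_1.

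Large-subunit factors fell as well. The 11 early 60S factors were lower in 11 of 11 cases in each knockout, with medians of -0.77 and -0.73. PES1, which with BOP1 and WDR12 forms the PeBoW complex needed for 28S and 5.8S rRNA, had 84.1, 93.0 and 84.7 CPM in R4KO_2 and 89.9, 86.4 and 101 CPM in R4KO_1, against 212, 217 and 203 CPM in Ctrl. It was 2.41-fold lower in R4KO_2 (edgeR adjusted p = 8.81e-15) and 2.28-fold lower in R4KO_1 (edgeR adjusted p = 3.33e-14). The other members of that complex fell by less, BOP1 by 0.76 and 0.85 and WDR12 by 0.56 and 0.62 on the log2 scale. RRS1, which with RPF2 brings the 5S RNP to the particle, had 32.6, 32.8 and 29.2 CPM in R4KO_2 and 25.1, 27.0 and 30.8 CPM in R4KO_1, against 67.6, 73.6 and 65.4 CPM in Ctrl. Its log2 fold change of -1.32 was the largest fall of any member in R4KO_1, beside -1.13 in R4KO_2.

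In the same set of 8 nucleolar 60S factors, GNL2, a GTPase of the 60S particle, had the smallest change. It stood at 134, 130.0 and 129 CPM in R4KO_2 and 129, 127 and 139 CPM in R4KO_1, against 140, 143 and 145 CPM in Ctrl, and its log2 fold changes of -0.12 and -0.11 turned to 0.05 and 0.03 when libraries were scaled by their totals alone. Both calls also ended with upper-quartile scaling (edgeR adjusted p = 0.058 and 0.123). That in R4KO_1 ended with only the 2 groups fitted (edgeR adjusted p = 0.0639) and without R4KO_1 replicate 1 (0.0514) or 2 (0.0795). The 3 factors that cut out the spacer ITS2 fell little and evenly. LAS1L, the nuclease, NOL9, the kinase beside it, and PELP1, a scaffold, fell by 0.37, 0.43 and 0.40 in R4KO_2 and by 0.34, 0.28 and 0.34 in R4KO_1, where the call of NOL9 ended with library totals alone. With library totals alone the median log2 fold change of all genes stood at 0.19 in R4KO_2 and 0.17 in R4KO_1, against 0.02 in both with TMM factors, and the medians of the members stood at -0.63 in both.

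**Figure D3:**
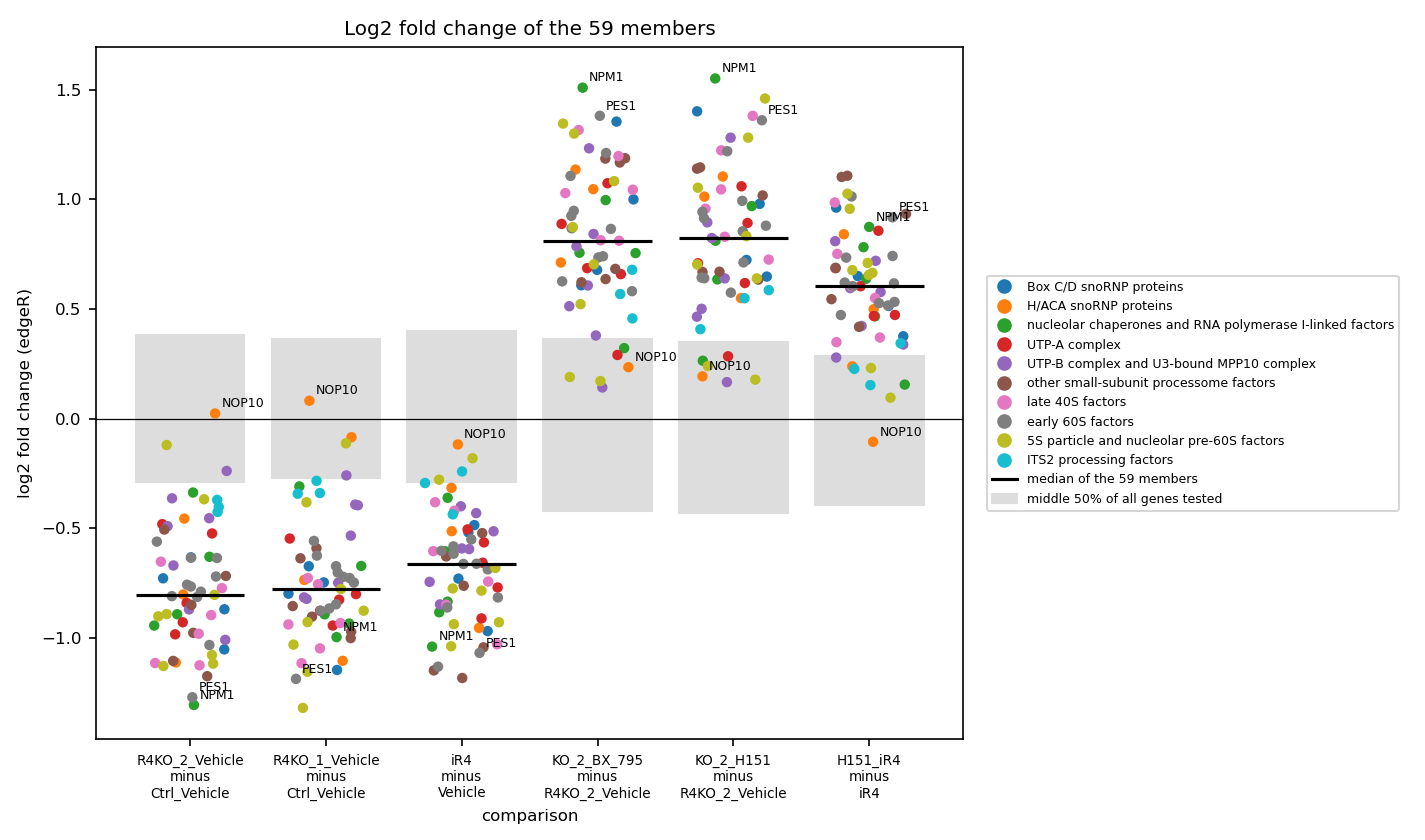
Log2 fold change by edgeR of each of the 59 genes (dots, coloured by role) in 6 comparisons, with the median of the members (black line) and the middle 50% of all genes tested (grey box). The member medians lie at -0.80, -0.78 and -0.66 in R4KO_2, R4KO_1 and iR4 and at 0.81, 0.82 and 0.60 in the 3 comparisons with an inhibitor, outside the grey boxes, and NOP10 lies inside each box.

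The 2 knockouts were set against each other to see how alike they were. Of 59 members, 9 were lower and 5 higher in R4KO_2 than in R4KO_1, where 16.6% of all genes were lower and 15.1% higher, and the median log2 difference was -0.04. At 15.3% and 8.47% of members, neither count exceeded the background. NHP2 at -0.37 and NPM1 at -0.31 were the largest lower calls, followed by UTP14A at -0.20. NOB1 and UTP4, a UTP-A protein, were higher by 0.28 each, and RRS1 by 0.19. None of these reached a 1.5-fold difference. With only the 2 knockouts fitted, the edgeR adjusted p was 0.109 for RRS1 and 0.0515 for UTP14A. The call of RRS1 also ended without replicate 1 or 2 of either knockout, at edgeR adjusted p of 0.113 to 0.193, and that of UTP14A without R4KO_2 replicate 3 (0.0576). Without R4KO_1 replicate 3 the counts became 7 lower and 9 higher, and without R4KO_2 replicate 3 they became 3 and 3.

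In the iR4 experiment the cells labelled iR4 were set against those labelled Vehicle. All 59 members were lower in iR4, with a median log2 fold change of -0.66, where 34.8% of 14000 genes tested were lower and the median of all genes was 0.02. All iR4 libraries lay below all Vehicle libraries for all 59, against 36.0% of all genes, and 8 members fell by 2-fold or more, against 2.94%. The 59 genes took 0.907 ± 0.0078% of counts in iR4, against 1.38 ± 0.0148% in Vehicle (SD, n = 3 each). Of the squamous markers 4 were lower and 4 higher in iR4, and their sum was 2892 to 2949 CPM, against 2854 to 3035 CPM in Vehicle. That of the fibroblast and endothelial markers was 32.9 to 39.0 CPM, against 20.8 to 24.1 CPM. The part of either set in the result was not tested.

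The largest falls in iR4 were in processome and 60S factors. UTP20, a large scaffold of the processome, had 59.2, 61.1 and 58.9 CPM in iR4, against 144, 133 and 129.6 CPM in Vehicle, a log2 fold change of -1.18 (SE 0.042, edgeR adjusted p = 4.42e-18). UTP14A fell by 1.15 and BOP1 by 1.13. BOP1 had 120.3, 127 and 118 CPM in iR4, against 272, 266 and 260.2 CPM in Vehicle. PES1 fell by 1.07, NPM1 by 1.04, NOP16, a nucleolar 60S factor, by 1.04 and PNO1 by 1.03. NOL6, a processome factor, is also among these, with 83.6, 85.5 and 84.3 CPM in iR4, against 176.5, 170.6 and 174.8 CPM in Vehicle. At the other end, NOP10 had 102, 103 and 95.2 CPM in iR4, against 106, 109 and 110 CPM in Vehicle, and its log2 fold change of -0.12 (edgeR adjusted p = 0.00728) became 0.04 when libraries were scaled by their totals alone. That call also ended with upper-quartile scaling (edgeR adjusted p = 0.0824) and without iR4 replicate 3 (edgeR adjusted p = 0.057). GNL2 fell by 0.18 and NOL9 by 0.24, and neither kept its call under that scaling.

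The iR4 experiment shares no library with the knockout experiment, so the sizes of change can be set against each other. Across the 59 members, the log2 fold changes of R4KO_2 and iR4 had a Pearson correlation of 0.86 and a Spearman correlation of 0.85, where the Pearson correlation over 13839 genes was 0.85. For R4KO_1 and iR4 the values were 0.80 and 0.78 over members and 0.71 over all genes. These describe genes within 1 cell line, which share their lengths, read depth and counting, and members are not independent replicates. The log2 fold changes had little relation to exon length (Spearman rho 0.10 in R4KO_2, 0.12 in R4KO_1 and -0.05 in iR4) or to the level in TPM (0.02, -0.05 and -0.02).

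**Figure D4:**
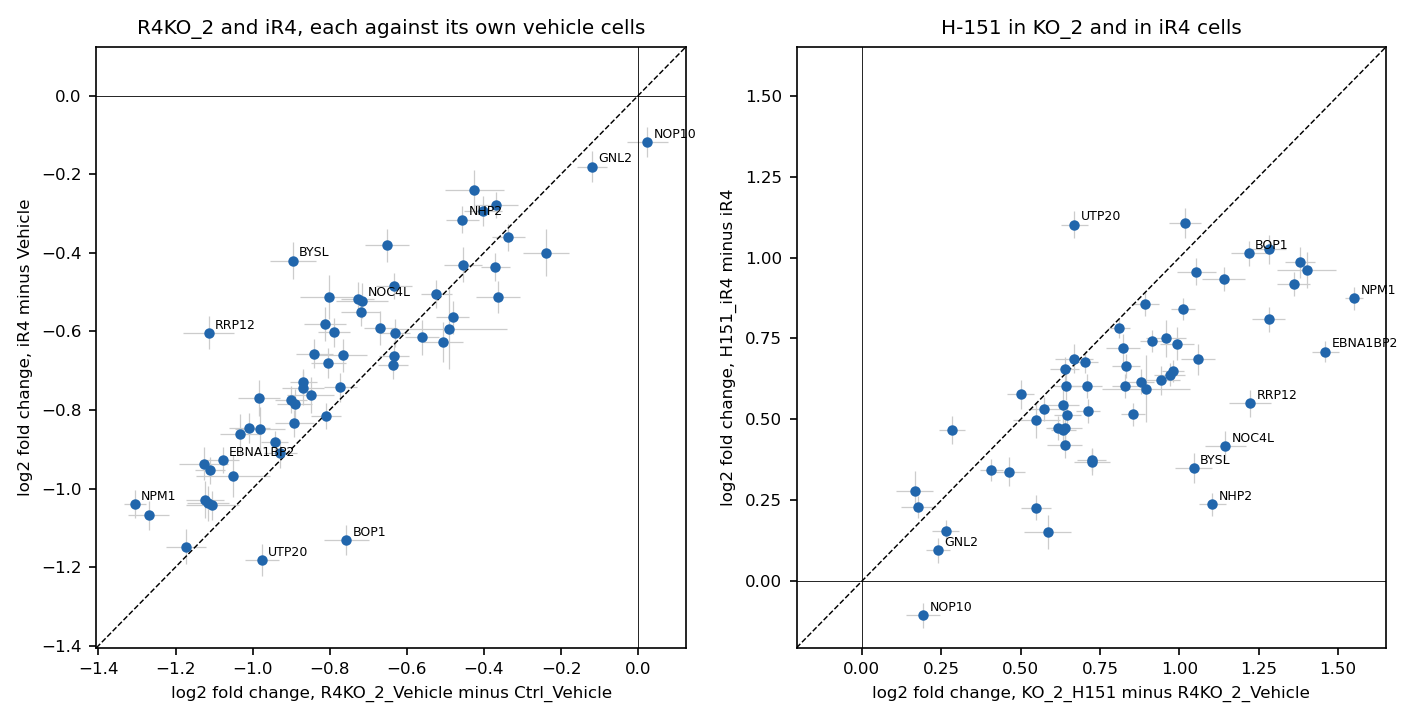
Log2 fold changes of the 59 genes (dots, with edgeR SE as bars) in comparisons that share no library: R4KO_2 minus Ctrl against iR4 minus Vehicle (left), and H-151 in KO_2 cells against H-151 in iR4 cells (right). Dashed lines mark equal change. On the left UTP20 and BOP1 lie below the line and RRP12 and BYSL above it, and on the right most genes lie below the line, with NHP2, NOC4L and EBNA1BP2 farthest from it and UTP20 above it.

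Inhibitors of STING and TBK1 were tested on the KO_2 knockout. All 59 members were higher in KO_2 BX_795 than in R4KO_2, at a median of 0.81 on the log2 scale, where 36.4% of all genes were higher. All 59 were also higher in KO_2 H151, with a median of 0.82, where 35.7% of all genes were higher. For all 59 the libraries did not overlap with either inhibitor, against 38.0% of all genes with BX_795 and 37.7% with H151. A rise of 2-fold or more was called for 19 members with BX_795, against 5.97% of all genes, and for 17 with H151, against 5.35%. Both comparisons share the R4KO_2 libraries with the comparison of that knockout with Ctrl, so the direction here is not independent of the falls above.

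Other values differed between these cultures. REXO4 itself stood at 19.1 ± 0.449 CPM in KO_2 BX_795 and 18.1 ± 1.49 CPM in KO_2 H151, against 6.40 ± 1.18 CPM in R4KO_2 (SD, n = 3 each). PXDN, the gene of the peroxidase peroxidasin, was chosen after its values were seen. It stood at 12.6 ± 0.843 and 10.98 ± 0.764 CPM in these treated groups, against 0.142 ± 0.111 CPM in R4KO_2, and R4KO_1 held 8.21 ± 0.799 CPM of it. The labels do not settle whether KO_2 and R4KO_2 are 1 line, and each fold change here depends on that reading. The treated libraries were also deeper, at 21.36 to 27.94 M counts, against 17.53 to 17.67 M in R4KO_2. Of the squamous epithelial markers, 5 were lower and 2 higher with BX_795, and 7 were lower and 1 higher with H151. Their sum was lower, at 2500.2 to 2555 CPM with BX_795 and 1936 to 1984 CPM with H151, against 3281 to 3369 CPM in R4KO_2. That of the fibroblast and endothelial markers was 47.2 to 48.9 CPM with BX_795 and 38.1 to 40.2 CPM with H151, against 29.9 to 33.5 CPM in R4KO_2. The part of these differences in the result was not tested, and the drug and the culture cannot be told apart. With R4KO_1 as the untreated knockout, a choice made after seeing the data, 59 of 59 members were again higher with each inhibitor, where 33.8% of all genes were higher with BX_795 and 33.0% with H151.

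With R4KO_2 as the untreated knockout, NPM1 rose most with both inhibitors. It had 2957, 2962 and 2970 CPM in KO_2 BX_795 and 3001, 3083 and 3068 CPM in KO_2 H151, against 1041, 1031 and 1052 CPM in R4KO_2. The log2 fold change was 1.51 (SE 0.029, edgeR adjusted p = 2.32e-20) with BX_795 and 1.55 (SE 0.029, edgeR adjusted p = 3.83e-20) with H151. EBNA1BP2, a 60S factor known for binding a viral nuclear antigen, rose by 1.34 with BX_795 and by 1.46 with H151, RRP9 by 1.35 and 1.401, PES1 by 1.38 and 1.36, and PNO1 by 1.32 and 1.38. IMP3 rose least, by 0.14 with BX_795 and by 0.17 with H151, and NOP10 rose by 0.23 and 0.19, and with library totals alone none of these 4 calls was kept. NHP2, which had fallen by 0.46 in R4KO_2, rose by 1.14 with BX_795 and by 1.10 with H151, to 172, 176 and 177 CPM and 165, 178 and 170.3 CPM, against 79.1, 79.3 and 80.4 CPM in R4KO_2. With R4KO_1 in its place, RRP9 rose most with BX_795, by 1.45 beside 1.199 for NPM1, and EBNA1BP2 most with H151, by 1.54 beside 1.24 for NPM1. The rises of NHP2 were then 0.76 with BX_795 and 0.73 with H151.

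Few members differed between BX_795 and H151. By edgeR 2 members were higher with BX_795 than with H151 and none lower, where 5.67% of all genes were higher and the members' share was 3.39%, and 6 members had an unadjusted p under 0.05. UTP14A had 77.8, 77.2 and 79.0 CPM in KO_2 BX_795, against 69.4, 70.6 and 70.9 CPM in KO_2 H151, a log2 difference of 0.15 (SE 0.046, edgeR adjusted p = 0.0428). NOLC1, a chaperone of snoRNPs, differed by 0.12 (SE 0.038, edgeR adjusted p = 0.0474). The calls ended when any 1 of the 6 libraries was left out. For the other 57 members the log2 difference lay between -0.12 for RPF2 and 0.16 for GAR1, and a p that misses the threshold does not show that the inhibitors act alike.

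Against Ctrl, the treated KO_2 cells had some factors higher and some lower. With BX_795, 11 members were lower and 25 higher, where 28% of all genes were lower and 27.7% higher, with a median log2 difference of 0.08. With H151, 14 were lower and 21 higher, where 26.9% and 26.0% of all genes were, with a median of 0.08. The members' own shares were 18.6% lower and 42.4% higher with BX_795 and 23.7% lower and 35.6% higher with H151, so the lower calls did not exceed the background, and both comparisons share the Ctrl libraries. All 8 squamous markers were lower than in Ctrl with either inhibitor, with the sums given above, against 3982 to 4313 CPM in Ctrl. The fibroblast and endothelial markers summed to 47.2 to 48.9 CPM with BX_795 and 38.1 to 40.2 CPM with H151, against 22.3 to 23.3 CPM in Ctrl, and the part of either in the result was not tested. NHP2 stood highest above Ctrl, by 0.68 with BX_795 and by 0.65 with H151. NOC4L, a processome factor, was higher by 0.47 and 0.43, and BOP1 by 0.45 and 0.46. Untreated cells of the 2 experiments, scaled apart, differed in these genes too. NHP2 had 106, 117 and 105 CPM in Ctrl and 169, 169 and 168 CPM in Vehicle. NOC4L had 43.45, 47.7 and 38.8 CPM in Ctrl and 65.7, 68.5 and 65.85 CPM in Vehicle. BOP1 had 165, 177 and 148 CPM in Ctrl and 271.5, 266 and 260.2 CPM in Vehicle. The treated libraries were deeper, at 21.36 to 27.94 M, against 17.73 to 18.03 M in Ctrl, and drug and culture cannot be told apart. UTP20 stood lowest, at -0.34 and -0.31 on the log2 scale, with 86.5, 92.4 and 84.7 CPM with BX_795 and 90.2, 90.7 and 88.7 CPM with H151, against 114, 108 and 112 CPM in Ctrl. At a fold of 1.5 or more only NHP2 was called in either comparison.

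In the iR4 experiment H-151 was given with iR4. Compared with iR4 alone, 58 of 59 members were higher in H151_iR4 and 1 was lower, where 35.1% of all genes were higher and 36.3% lower, with a median log2 fold change of 0.60. The iR4 libraries are shared with the comparison of iR4 with Vehicle, so the direction here is not independent of the falls in iR4. For 57 members all H151_iR4 libraries lay above all iR4 libraries, against 35.8% of all genes, with overlap for NOL9, and 4 rose by 2-fold or more, against 3.09%. UTP14A rose most, by 1.11, with 79.4, 76.6 and 76.5 CPM in H151_iR4, against 33.9, 37.9 and 36.2 CPM in iR4. UTP20 rose by 1.10, NOP16 by 1.03 and BOP1 by 1.013, and these 3 with UTP14A are the 4 members past 2-fold. NPM1 rose by 0.87. The sum of the squamous markers, of which 6 were lower and 1 higher, was 1944 to 2046 CPM in H151_iR4, against 2892 to 2949 CPM in iR4. That of the fibroblast and endothelial markers was 23.7 to 25.2 CPM in H151_iR4, against 32.9 to 39.0 CPM in iR4, and REXO4 stood at 89.5 ± 2.21 CPM, against 60.2 ± 2.84 CPM (SD, n = 3 each), whose part in the result was not tested. NOP10 was the member that was lower, with 91.9, 92.5 and 93.8 CPM in H151_iR4, against 102, 103 and 95.2 CPM in iR4, a log2 fold change of -0.11 (edgeR adjusted p = 0.0171) that was also negative under the other scalings. That call ended with DESeq2 (adjusted p = 0.0745), and in edgeR without a low-count filter (adjusted p = 0.061), with all 24 libraries in one fit (0.0639), and without H151_iR4 replicate 2 (0.0654) or iR4 replicate 1 (0.0756) or 2 (0.0705). GNL2 was higher by 0.10 (edgeR adjusted p = 0.0328), and this turned to -0.03 with library totals alone and lost its edgeR call without H151_iR4 replicate 1 (adjusted p = 0.179) or iR4 replicate 1 (0.134) or 2 (0.0519).

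Compared with Vehicle, 17 members were lower in H151_iR4 and none higher, where 9.58% of all genes were lower, with a median log2 difference of -0.08. NOP10 at -0.22, EBNA1BP2 at -0.22 and TCOF1 at -0.21 were the largest, and none reached 1.5-fold. All 5 chaperones and polymerase I-linked factors were among the 17, with a median of -0.17, while no UTP-A, UTP-B or MPP10 protein was. Without H151_iR4 replicate 2 the count was 8. The squamous markers, of which 6 were lower and 1 higher, summed to 1944 to 2046 CPM in H151_iR4, against 2854 to 3035 CPM in Vehicle. Their part in this result was not tested. The 59 genes took 1.30 ± 0.0076% of counts in H151_iR4, against 1.38 ± 0.0148% in Vehicle (SD, n = 3 each).

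Whether the factors were higher with H-151 by the same amount in both settings was tested next. The test took a difference of log2 fold changes, H151_iR4 minus iR4 less KO_2 H151 minus R4KO_2, over 14585 genes. By edgeR the difference passed the test as negative for 36 members and as positive for 2, where 27.0% of all genes were lower and 23.7% higher. The median difference was -0.19 for members and -0.03 for all genes. It was -0.29 for cytosolic ribosomal protein genes and -0.16 for other ribosome assembly factors, so it was not particular to the members. The 2 experiments share no library and each holds 1 of the settings, so setting and experiment cannot be told apart. With R4KO_2 as the untreated knockout, NHP2 had the largest difference, -0.87 (SE 0.056, edgeR adjusted p = 1.16e-13), from a rise of 0.24 with iR4 and of 1.10 in KO_2 cells. EBNA1BP2 differed by -0.76, NOC4L by -0.74 and NOP10, which was lower in H151_iR4 than in iR4, by -0.31. All 6 late 40S factors were among the 36, with BYSL, which works in 40S assembly, at -0.70. UTP20 went the other way, with 0.42 (SE 0.060, edgeR adjusted p = 9.38e-07), and so did WDR75, a UTP-A protein, with 0.18. The call of WDR75 ended without a low-count filter (edgeR adjusted p = 0.0618) and without H151_iR4 replicate 3, iR4 replicate 2, KO_2 H151 replicate 1 or R4KO_2 replicate 3, at edgeR adjusted p of 0.051 to 0.0523. With R4KO_1 as the untreated knockout, 36 members again passed the test as negative and 2 as positive, where 26.9% of all genes were lower and 23.8% higher. The difference was then -0.51 for NHP2, and EBNA1BP2 had the largest at -0.84. The positive calls were UTP20 at 0.54 and UTP14A at 0.28, while WDR75 at 0.10 was not called (edgeR adjusted p = 0.161). Across the 59 members, the rises with H151 in KO_2 and with H151 in iR4 had a Pearson correlation of 0.70 and a Spearman correlation of 0.70, against a Pearson correlation of 0.64 over 13839 genes.

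By group, 35 members had their lowest mean of the 5 knockout-experiment groups in R4KO_2, 23 in R4KO_1 and 1, NOP10, in Ctrl. The highest mean was in KO_2 BX_795 for 21, in KO_2 H151 for 17 and in Ctrl for 21. In the iR4 experiment the lowest mean was in iR4 for 58 members and in H151_iR4 for NOP10, and the highest was in Vehicle for 57.

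By their medians, the other genes of the pathway moved the same way, by less, in the knockouts and in iR4. The same held for the inhibitors compared with untreated knockout or iR4 cells. Of 83 further ribosome assembly factors, 77 were lower and 1 higher in R4KO_2, at a median of -0.48 on the log2 scale, and 77 and 1 in R4KO_1, with a median of -0.44. In iR4, 71 were lower and 2 higher, with a median of -0.39. With BX_795 and with H151 in KO_2 cells, 77 of the 83 were higher and 1 lower, and in H151_iR4 compared with iR4, 70 were higher and 2 lower. The 1 that went against the rest in the knockouts was EFL1, a GTPase that releases eIF6 from finished 60S subunits, which rose by 0.58 in R4KO_2 and by 0.55 in R4KO_1. It also rose in iR4, by 0.36, and fell with BX_795 by 0.42, with H151 in KO_2 by 0.44 and with H151 in iR4 by 0.32. RRP15, a 60S factor, fell by 1.23 in R4KO_2 and by 1.001 in iR4, and PPAN, a 60S factor whose reads can be shared with a readthrough gene, fell by 1.31 in R4KO_1 and by 1.05 in iR4. Of 15 genes of the RNA polymerase I machinery, 13 were lower and 1 higher in R4KO_2, 13 and 0 in R4KO_1, and 11 and 2 in iR4. Of 79 genes for cytosolic ribosomal proteins, 79 were lower in R4KO_2, 76 in R4KO_1 and 78 in iR4, with none higher and medians of -0.60, -0.44 and -0.40. In the comparisons that follow, their medians lay below those of the members. In R4KO_2 compared with R4KO_1, 48 were lower and 5 higher, with a median of -0.18. In H151_iR4 compared with Vehicle, 43 were lower and none higher, with a median of -0.11. In the difference between the settings with H-151, 60 were lower and 1 higher, with a median of -0.29. All these counts stand against the shares of all genes given with each comparison above, and nothing particular to a list was tested.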

How the data were processed

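Polyadenylated RNA was isolated with TRIzol and oligo-dT, per the labels' protocols, although the labels' molecule field names genomic DNA. The values are raw read counts per gene, deposited by the authors. The submitters' processing notes name the aligner HISAT2 (2.2.1), the counter featureCounts (2.0.1), FastQC (0.11.9), DESeq2 (1.42.0) and Trim Galore (0.6.4), with builds hg38 and mm10. No source used here gives the annotation or strandedness of the counting, so reads of overlapping genes on opposite strands cannot be told apart.

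Genes were kept with filterByExpr (minimum count 10), libraries were scaled by TMM, and edgeR 4.0.16 (R 4.3.3, limma 3.58.1) gave quasi-likelihood F tests with Benjamini-Hochberg adjustment over all genes and a threshold of 0.05. The knockout fit held 15 libraries and 14348 genes, the iR4 fit 9 and 14000, and the joint fit 24 and 14585. Standard errors are the log2 fold change divided by the square root of F. CPM values use TMM factors, and TPM values use exon lengths of a GRCh38 annotation (GENCODE). Total counts were 16.04 to 27.94 M per library. The scripts were tested on simulated data.

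The members and the other gene lists were chosen with earlier results of these data known. In the first 6 comparisons the named genes are the lowest and highest member of each role, members called against the majority, and NPM1, NCL, FBL and DKC1. In the others they are the 3 largest called changes in each direction, and among other assembly factors the 2 largest. GAR1, NHP2 and members given in comparisons whose rule left them out were named after their values were seen. Samples were grouped by title. Alternatives were RLE, upper-quartile and library-total scaling, other low-count filters, DESeq2, a fold minimum of 1.5, the replicate block, other sets of libraries, and leaving out each replicate. The replicate numbers did not pair the samples.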

Additional observations from a re-analysis of the deposited data

Results flagged for a closer look

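The response to H-151 differed between the settings by a test of the difference itself in the joint edgeR fit. The log2 fold change in H151_iR4 compared with iR4, less that in KO_2 H151 compared with R4KO_2, passed the test as negative for 36 members and as positive for 2. Of all genes, 27.0% were lower and 23.7% higher, and the median difference was -0.19 for members and -0.03 for all genes. Of 79 cytosolic ribosomal protein genes, 75.9% were lower and 1.27% higher, with a median of -0.29. Of 83 other ribosome assembly factors, 50.6% were lower and 3.61% higher, with a median of -0.16. The difference was thus not particular to the members. Setting and experiment cannot be told apart, and whether KO_2 and R4KO_2 are the same line is in doubt. The largest negative log2 differences were -0.87 for NHP2, -0.76 for EBNA1BP2 and -0.74 for NOC4L. With R4KO_1 as the untreated knockout, a choice made after seeing the data, they were -0.51 for NHP2, -0.84 for EBNA1BP2 and -0.62 for NOC4L. EBNA1BP2 had 333, 315 and 332 CPM in H151_iR4, against 197, 206 and 196 CPM in iR4, and 305, 313 and 314 CPM in KO_2 H151, against 121, 112 and 106 CPM in R4KO_2. NOC4L had 64.5, 59.3 and 62.8 CPM in H151_iR4, against 45.0, 47.6 and 46.8 CPM in iR4, and 60.3, 55.7 and 58.9 CPM in KO_2 H151, against 26.8, 27.0 and 25.3 CPM in R4KO_2. The positive differences were 0.42 for UTP20 and 0.18 for WDR75. The call of WDR75 ended with R4KO_1 as the untreated knockout (0.10, edgeR adjusted p = 0.161), without a low-count filter (0.0618) and without any 1 of 4 libraries (0.051 to 0.0523). UTP20 had 132, 127 and 126 CPM in H151_iR4, against 59.2, 61.1 and 58.9 CPM in iR4, and 90.2, 90.7 and 88.7 CPM in KO_2 H151, against 58.1, 55.0 and 56.3 CPM in R4KO_2.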

How the results depend on the processing

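Of 199 recomputed counts of called members, 174 stayed on the same side and within 1.5 times of the reported count. Of 2615 recomputed values of single named members, 2464 kept direction and call, where values called in neither fit counted as kept whatever their sign. The call was lost by 143, among them those that the fold minimum of 1.5 removes by rule. Another 4 gained a call, and 4 changed sign with a call in either fit. With library totals alone, GNL2 was at 0.0495 in R4KO_2, 0.0340 in R4KO_1 and -0.0343 in H151_iR4 compared with iR4 on the log2 scale, and NOP10 was at 0.0358 in iR4. The difference between BX_795 and H151 (2 calls) gave 1 call with RLE scaling, 1 without a low-count filter, 0 with the replicate block, 1 with DESeq2, 0 at a fold of 1.5, 5 with only the 2 groups fitted and 0 in every fit that left out 1 library. R4KO_2 against R4KO_1 (14 calls) gave 14 with library totals, of which 6 were lower and 8 higher, 0 at a fold of 1.5, 7 with only the 2 groups, and 6 to 16 when 1 library was left out. A fold of 1.5 left 38 members in iR4, 32 in H151_iR4 compared with iR4, 1 each in KO_2 H151 and KO_2 BX_795 compared with Ctrl, 0 in H151_iR4 compared with Vehicle and 6 in the difference of H-151 responses. Leaving out 1 library gave 58 calls in each R4KO_2 fit, 55 to 57 in R4KO_1, 58 to 59 in iR4, 58 to 59 with BX_795 and with H151 in KO_2, 56 to 59 in H151_iR4 compared with iR4, 8 to 16 in H151_iR4 compared with Vehicle, 27 to 36 for H151 and 29 to 35 for BX_795 compared with Ctrl, and 33 to 39 for the difference of responses. The cause of these changes was not tested. Samples shared only a replicate number: deviations of same-numbered libraries correlated from -0.27 to 0.39 in the knockout experiment and from -0.09 to 0.06 in the iR4 experiment. For differently numbered libraries the ranges were -0.38 to 0.41 and -0.08 to 0.07. The largest correlations of either sign lay between R4KO_1 and R4KO_2 libraries, and their cause was not tested. With the replicate block, 13 members differed between the knockouts, 35 between either treated group and Ctrl and 37 in the difference of responses, and apart from the comparison of inhibitors no other count changed. Whether depth limits the small differences was not tested, and the lowest count of a member in a library was 106.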

Other observations

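Several members host small nucleolar RNAs in their introns, which guide the rRNA changes made by the snoRNPs. The 7 hosts among the 59 (NOP58, NOP56, NCL, DKC1, WDR43, GNL3 and TSR1) hold 25 such genes in the GRCh38 annotation. Their median log2 fold change was -0.87 in R4KO_2, against -0.78 for the 52 other members. It was -0.80 in R4KO_1, against -0.75, and -0.74 in iR4, against -0.62. These are descriptions of few genes, with no test.

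Exons of 31 members overlap those of another annotated gene. NOP2, which encodes an rRNA methyltransferase, shares 54.4% of its exon bases with a transcript on the same strand, and LTV1, a 40S export factor, shares 34.8%. NOP2 fell by 0.79 on the log2 scale in R4KO_2 and by 0.72 in R4KO_1, and LTV1 by 0.98 and 0.94. No source used here says how reads on such shared bases were counted.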
